A study of Mus musculus with 24 samples.

Results

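The transcripts of 10 erythroid transcription factors and cofactors were followed in RNA-seq data of mouse bone marrow cells. They were Gata1, Klf1, Zfpm1, Tal1, Gfi1b, Nfe2, Lmo2, Ldb1, Zbtb7a and Sox6, chosen by name as the GATA1 complex, KLF1 and other known regulators of red cell development. No measured value entered the rule, but the choice was made with earlier results of these data known. They are 10 of the 54752 genes in the deposited table and of the 12373 genes with more than 1 TPM (a share of all transcripts, set per length) in at least 1 library. All 10 passed that filter, and each was above 1 TPM in all 24 libraries, the lowest value being 1.83. The cells came from 24 male C57BL/6 mice of the MHU-3 mission, with 6 mice in each of 4 groups and 1 library per mouse. FL-WT and FL-KO mice were wild-type and Nrf2-KO mice that spent 31 days in space and were 8 weeks old when they were taken to the launch site. GC-WT and GC-KO mice were wild-type and Nrf2-KO ground controls kept in Japan in the same kind of single cages, with the same food and water. How the Nrf2 gene was disrupted is not given in the sources used here. Cells of the right pelvis and tibia were frozen in CELLBANKER2. RNA was taken from the unsorted frozen suspension, so each value mixes the RNA of all its cells, and cells with more RNA weigh more. Flight mice were killed after landing, so no library was taken in space. Time in space and the return to ground gravity cannot be told apart here. After return, measurements were made on the US West Coast and in Japan, and flight and place of handling cannot be told apart here.

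Red cells arise from progenitors that silence the programmes of other blood lineages and switch on genes for haemoglobin, haem synthesis and the membrane skeleton. GATA1 binds GATA motifs and works with its cofactor FOG1, the product of Zfpm1, and in a complex with TAL1, LMO2 and LDB1 that joins GATA motifs to nearby E-boxes. KLF1 binds CACCC elements of adult globin, haem and membrane genes, GFI1B represses through the LSD1-CoREST complex, NF-E2 binds globin control regions with small Maf proteins, and ZBTB7A and SOX6 take part in late maturation and in the silencing of embryonic and fetal globin genes. Several of these proteins also act in megakaryocytes, mast cells, eosinophils or stem cells.

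Promoter sequences of RefSeq on GRCm38.p6 were at hand for 8 of the 10 genes, the exceptions being Nfe2 and Lmo2. The 250 bases before the start are printed for 5 of them, read on the strand of the gene. Gata1 and Klf1 are shown because their levels were the most alike of all pairs, Zfpm1 and Zbtb7a because they fell most with the Nrf2-KO genotype, and Sox6 because it passed as lower after flight and not by genotype. Capitals mark GATA motifs (AGATAA or AGATAG or TGATAA or TGATAG) and the KLF motif CCNCNCCC, on either strand, and neighbouring matches can run together.
Gata1, chrX:7967911-7968160, minus strand: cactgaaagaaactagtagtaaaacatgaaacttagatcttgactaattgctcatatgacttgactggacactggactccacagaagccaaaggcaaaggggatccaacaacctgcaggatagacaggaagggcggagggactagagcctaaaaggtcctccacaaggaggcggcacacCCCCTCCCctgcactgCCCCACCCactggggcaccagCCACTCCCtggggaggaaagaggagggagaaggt
Klf1, chr8:84901732-84901981, plus strand: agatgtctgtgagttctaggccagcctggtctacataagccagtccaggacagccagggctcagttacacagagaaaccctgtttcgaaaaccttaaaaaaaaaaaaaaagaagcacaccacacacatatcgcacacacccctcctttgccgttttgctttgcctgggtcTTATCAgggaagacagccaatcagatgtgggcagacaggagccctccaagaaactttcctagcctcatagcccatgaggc
Zfpm1, chr8:122281891-122282140, plus strand: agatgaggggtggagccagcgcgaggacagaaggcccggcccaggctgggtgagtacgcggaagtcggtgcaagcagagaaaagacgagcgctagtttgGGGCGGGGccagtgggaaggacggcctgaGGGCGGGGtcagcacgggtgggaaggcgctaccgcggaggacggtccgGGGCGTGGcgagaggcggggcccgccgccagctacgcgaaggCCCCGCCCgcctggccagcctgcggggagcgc
Zbtb7a, chr10:81136021-81136270, plus strand: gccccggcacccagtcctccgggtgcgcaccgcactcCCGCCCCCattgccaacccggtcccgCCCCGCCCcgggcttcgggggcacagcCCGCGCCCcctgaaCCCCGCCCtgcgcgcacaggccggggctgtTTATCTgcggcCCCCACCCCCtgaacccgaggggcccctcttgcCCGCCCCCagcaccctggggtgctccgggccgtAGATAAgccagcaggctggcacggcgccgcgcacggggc
Sox6, chr7:116038745-116038994, minus strand: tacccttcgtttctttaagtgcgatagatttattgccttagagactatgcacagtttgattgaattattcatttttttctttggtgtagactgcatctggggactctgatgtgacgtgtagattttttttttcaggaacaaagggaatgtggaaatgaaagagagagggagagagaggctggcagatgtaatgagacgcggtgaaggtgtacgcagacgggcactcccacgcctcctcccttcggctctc
Sox6 has 6 starts in RefSeq, and the most upstream is shown. A GATA motif stood in the first window of 4 of the 8 genes (Klf1, Tal1, Gfi1b and Zbtb7a). It stood in 26.5% of all 32851 promoter windows of the same length, which include further starts of the same genes. Tal1 has 2 starts and Ldb1 has 3, and the bases after the first start of each were not found in a transcript of the gene. The second Tal1 window and the second Ldb1 window held 0 GATA motifs. The third Ldb1 window held 2, but the bases after its start were not found in a transcript either. In Klf1 the match began 80 bases before the start. The KLF motif stood in 5 of the 8 windows against 45.9% of all, the E-box motif CAGNTG in 2 of the 8 against 44.8%, and the NF-E2 motif TGANTCA in 0 of the 8 against 6.7%, each on both strands. The windows differed in composition. That of Zfpm1 was 73.2% G or C with 28 CpG and that of Zbtb7a 78.0% with 26, while those of Sox6 (45.2%, 9 CpG) and Klf1 (49.2%, 3 CpG) lay under the median of all windows in GC content (52.4%). A match is a description of the letters and no measure of binding.

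The labels of genotype and tissue were checked first. Nfe2l2, the gene of Nrf2, averaged 21.3 ± 3.19 TPM (SD, n = 6) in WT and 4.97 ± 1.25 TPM in Nrf2-KO mice on the ground, against 18.6 ± 5.93 and 3.06 ± 0.794 TPM after flight, with every Nrf2-KO mouse below every WT mouse of the same condition. Erythroid genes were abundant. The 31 target genes of the factors that were in the table, globins included, summed to between 87932 and 246617 TPM per mouse. Neutrophil markers summed to between 30315 and 67443 TPM, and 5 abundant small RNAs held 35.4% to 59.6% of TPM. Read counts were not in the table, so the depth behind a value is unknown. In whole marrow, fewer erythroid cells and less RNA of a factor per erythroid cell cannot be told apart by these values. By flow cytometry of thawed marrow, the paper reports a higher share of early erythroid progenitors after flight in both genotypes. Later erythroid cells barely survived the thawing and were left out there.

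Because TPM is set per length, levels can be ranked between genes. Nfe2 was the highest factor in every group, with a mean of 82.3 ± 12.3 TPM (SD, n = 6) in GC-WT mice, followed by Lmo2 (57.3 ± 12.2 TPM) and Klf1 (52.4 ± 13.4 TPM). Gfi1b was the lowest in every group, with 13.2 ± 4.42 TPM in GC-WT mice. Zfpm1, Tal1, Sox6, Ldb1, Gata1 and Zbtb7a lay between 37.5 and 18.9 TPM in this order of means. The ranges of neighbours in this order overlapped in GC-WT, FL-WT and GC-KO mice. In FL-KO mice there were gaps. Lmo2 stood clear of Klf1, and Ldb1 stood clear of Gata1. Summed over the 10 genes, WT mice had a median of 336 TPM on the ground (265 to 456) and 213 TPM after flight (140 to 297). Nrf2-KO mice had 274 TPM on the ground (220 to 376) and 136 TPM after flight (112 to 169).

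**Figure D1:**
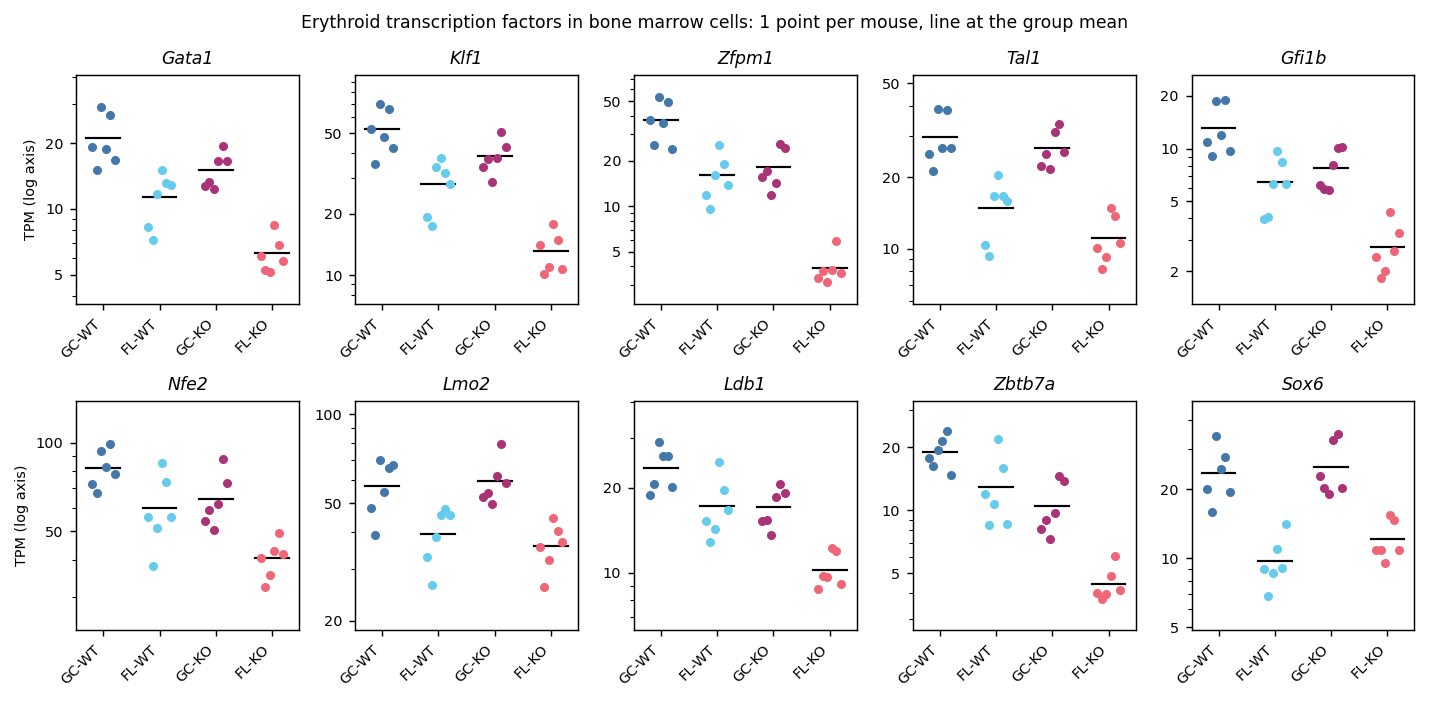
TPM of the 10 factors on a log axis, 1 point per mouse and a line at the mean of each group of 6. In all 10 panels the FL-KO mice lie below the GC-KO mice without overlap, and Zfpm1 shows the widest distance, from a mean of 37.5 TPM in GC-WT to 3.91 TPM in FL-KO mice.

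The values are given in turn as lowest, median and highest of 6 mice, beginning with GATA1 and its cofactor. Gata1 (ENSMUSG00000031162.14, chrX:7959260-7978071 on GRCm38, minus strand) was at 15.03, 19.0 and 29.35 TPM in GC-WT and at 7.21, 12.3 and 15.10 TPM in FL-WT mice. In Nrf2-KO mice Gata1 was at 12.31, 14.9 and 19.33 TPM on the ground and at 5.17, 5.95 and 8.44 TPM after flight. The WT groups touched at a single flight mouse just above the lowest ground mouse, and the Nrf2-KO groups did not overlap. Zfpm1 (chr8:122282141-122337251, plus strand) was at 23.98, 36.4 and 53.60 TPM in GC-WT and at 9.58, 15.0 and 25.50 TPM in FL-WT mice. In Nrf2-KO mice Zfpm1 was at 11.93, 16.4 and 25.72 TPM on the ground, a range close to that of FL-WT mice, and at 3.15, 3.66 and 5.88 TPM after flight. All FL-KO mice lay below all mice of the other 3 groups. Zfpm1 lies within Gm20388, a longer gene model on the same strand that was at 0.164 TPM on average.

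Of the partners of GATA1 at E-boxes, Tal1 (chr4:115056426-115071755) was at 21.27, 26.6 and 38.93 TPM in GC-WT and at 9.34, 16.2 and 20.48 TPM in FL-WT mice. Tal1 was at 21.66, 25.4 and 33.79 TPM in GC-KO and at 8.18, 10.3 and 14.87 TPM in FL-KO mice. Flight and ground mice did not overlap in either genotype, while WT and Nrf2-KO mice overlapped in both conditions. Lmo2, a LIM-only bridging protein (chr2:103957986-103981878), was at 38.91, 60.0 and 69.68 TPM in GC-WT and at 26.37, 41.8 and 47.84 TPM in FL-WT mice. In GC-KO mice Lmo2 was at 49.68, 56.1 and 79.18 TPM and in FL-KO mice at 26.05, 36.1 and 44.67 TPM. Only the Nrf2-KO groups were separate. Ldb1, the adaptor that pairs these complexes at distant sites (chr19:46031570-46045214), was at 18.83, 23.2 and 28.95 TPM in GC-WT and at 12.83, 16 and 24.71 TPM in FL-WT mice. Ldb1 was at 13.56, 17.0 and 20.66 TPM in GC-KO and at 8.80, 9.69 and 12.25 TPM in FL-KO mice, which lay below all other groups. Ldb1 overlaps Pprc1 on the other strand, a gene at 2.74 TPM on average. The library kit keeps strand, but whether the TPM estimate used it is not given in the sources used here.

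Klf1 (chr8:84901928-84905291) was at 35.16, 50.3 and 69.63 TPM in GC-WT and at 17.47, 30 and 37.98 TPM in FL-WT mice. In Nrf2-KO mice Klf1 was at 28.87, 37.4 and 50.66 TPM on the ground and at 10.11, 12.5 and 17.78 TPM after flight, with no overlap. Gfi1b (chr2:28609450-28621982) was at 9.04, 11.4 and 18.89 TPM in GC-WT and at 3.97, 6.29 and 9.66 TPM in FL-WT mice. Gfi1b was at 5.78, 7.16 and 10.17 TPM in GC-KO mice and at 1.83, 2.52 and 4.33 TPM in FL-KO mice, again apart. Nfe2 (chr15:103248212-103258403) was at 67.66, 80.4 and 99.13 TPM in GC-WT and at 38.20, 55.8 and 85.12 TPM in FL-WT mice. It was at 50.42, 60.4 and 87.79 TPM in GC-KO and at 32.37, 41.3 and 49.44 TPM in FL-KO mice. The WT groups of these 3 genes overlapped, with 5 of 6 FL-WT mice below the lowest GC-WT mouse for Klf1 and Gfi1b and 4 of 6 for Nfe2.

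The repressors of embryonic and fetal globin genes differed in pattern. Zbtb7a (chr10:81135220-81152995) was at 14.75, 18.7 and 23.82 TPM in GC-WT and at 8.46, 11.4 and 22.02 TPM in FL-WT mice, the widest relative spread of any factor in a group (coefficient of variation 40.3%). In GC-KO mice Zbtb7a was at 7.28, 9.32 and 14.62 TPM, below every GC-WT mouse, and in FL-KO mice at 3.74, 4.07 and 6.04 TPM. Sox6 (chr7:115470872-116038796) was at 15.89, 22.3 and 33.99 TPM in GC-WT and at 6.82, 9.0 and 14.04 TPM in FL-WT mice. Sox6 was at 18.95, 21.5 and 34.62 TPM in GC-KO and at 9.58, 10.9 and 15.50 TPM in FL-KO mice. Its flight mice lay below its ground mice in both genotypes, and its genotypes overlapped in both conditions. In TPM as deposited Zbtb7a separated the genotypes on the ground, by a narrow gap (14.62 against 14.75 TPM). Sox6 separated flight from ground in WT mice, as Tal1 did. A lower group without overlap was seen for 9.15% of all genes by genotype on the ground and 4.19% after flight in WT mice.

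All 10 factors were lower after flight in WT mice (FL-WT vs. GC-WT). The test was limma on log2(TPM + 1), a scale on which fold changes of low genes are understated, and a gene passed at a Benjamini-Hochberg adjusted p under 0.1. All 10 factors passed as lower, where 39.0% of all tested genes did, and 0 passed as higher, where 0.994% did. DEGs, with a fold change of at least 2 in addition, were Zfpm1 and Sox6, 2 of 10 factors against 0.938% of all genes. Sox6 fell by 1.18 on the log2 scale (SE 0.18, adjusted p = 7.08e-05), to 41.4% of the mean TPM of GC-WT mice. Zfpm1 likewise fell by 1.18 (SE 0.21, adjusted p = 4.29e-04), to 42.7%. Tal1 fell by 0.95 (adjusted p = 5.90e-04), Gfi1b fell by 0.93 (0.00234), Klf1 fell by 0.89 (0.00155) and Gata1 fell by 0.83 (0.00124), which left these 4 at 48.8% to 54.2%. The other 4 changed less. Zbtb7a fell by 0.57 (adjusted p = 0.0259), Lmo2 fell by 0.53 (0.0176), Nfe2 fell by 0.48 (0.0272) and Ldb1 fell by 0.44 (0.0249), with 68.3% to 73.6% of the ground level left. The groups did not overlap for Tal1 and Sox6, 2 of 10 factors against 4.19% of all genes. Without FL-WT mouse 7, or without GC-WT mouse 5, 4 factors were DEGs, with Tal1 and Gfi1b added, and Gfi1b was also added without GC-WT mouse 10 or FL-WT mouse 8.

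In Nrf2-KO mice the same comparison (FL-KO vs. GC-KO) gave larger differences in TPM as deposited for 9 of the 10 factors, Sox6 being the exception. The median of all genes was -0.29 here and -0.24 in WT mice, and no factor passed the interaction test given below. The 5 small RNAs held 35.4% to 48.4% of TPM in GC-KO and 46.1% to 59.3% in FL-KO mice. In WT mice they held 41.0% to 58.2% on the ground and 40.1% to 59.6% after flight. Without them the median of the factors was -0.99 in Nrf2-KO and -0.90 in WT mice, and Nfe2 and Lmo2 fell slightly less in Nrf2-KO mice. As deposited, all 10 factors passed as lower against 53.1% of all genes, and 0 passed as higher against 0.299%. All 10 showed no overlap between the groups, against 18.4% of all genes. The DEGs were Zfpm1, Klf1, Gfi1b, Tal1, Gata1 and Zbtb7a, 6 of 10 factors against 2.13% of all genes. Zfpm1 fell by 1.94 (SE 0.21, adjusted p = 8.30e-06) and kept 21.5% of the GC-KO level. Klf1 fell by 1.5 (SE 0.19, adjusted p = 1.45e-05) and kept 33.9%. Gfi1b fell by 1.22, Tal1 fell by 1.2, Gata1 fell by 1.15 and Zbtb7a fell by 1.04, with adjusted p between 3.58e-05 and 2.46e-04 and 35.6% to 42.8% of the level left. Sox6 fell by 0.97 (adjusted p = 3.27e-04), to 48.5%, and was a DEG without GC-KO mouse 2, 4 or 12 or FL-KO mouse 9 or 11. Zbtb7a was no DEG without GC-KO mouse 11 or 12 or FL-KO mouse 2. Lmo2 fell by 0.71 (adjusted p = 0.00160), Ldb1 fell by 0.68 (8.27e-04) and Nfe2 fell by 0.65 (0.00315), with 59.9% to 62.8% left. Lmo2, Ldb1 and Nfe2 had the smallest differences of the 10, as they had in WT mice.

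**Figure D2:**
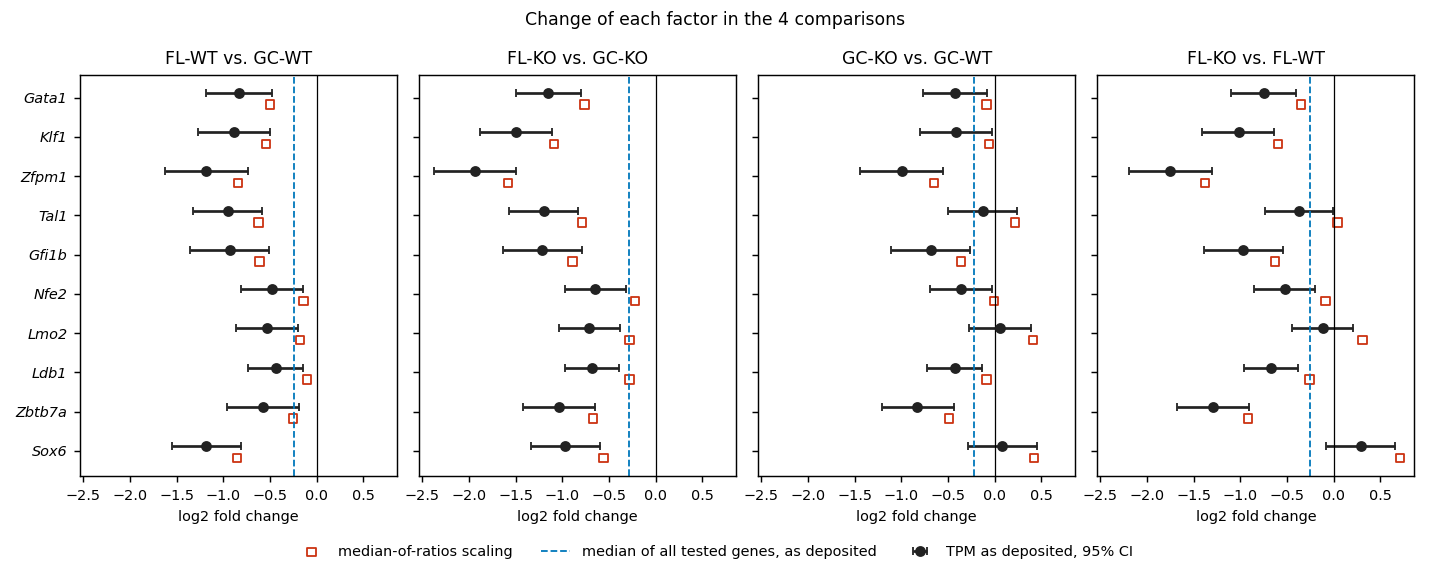
Log2 fold change of each factor in the 4 comparisons. Filled points give TPM as deposited with 95% confidence intervals from limma, open squares give median-of-ratios scaling, and the dashed line gives the median of all tested genes as deposited (-0.24, -0.29, -0.22 and -0.25 from left to right). All 10 points lie left of the dashed line in both flight comparisons, while Lmo2, Sox6 and Tal1 lie right of it by genotype on the ground.

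By genotype on the ground (GC-KO vs. GC-WT) the factors were divided. Gata1, Klf1, Zfpm1, Gfi1b, Nfe2, Ldb1 and Zbtb7a passed as lower, 7 of 10 against 42.9% of all genes, and 0 passed as higher against 3.13%. With limma 0 factors were DEGs against 3.04% of all genes, where 7 had an unadjusted p under 0.05, and limma with a mean-expression trend gave the same counts. Zfpm1 fell by 0.99 (SE 0.21, adjusted p = 0.0010), to 48.5% of the GC-WT level, and was a DEG without GC-WT mouse 5, GC-WT mouse 10, GC-KO mouse 11 or GC-KO mouse 12. Zbtb7a fell by 0.83 (SE 0.19, adjusted p = 0.00141) to 55.1%, and was the only factor without overlap (1 of 10 against 9.15% of all genes). Gfi1b fell by 0.68 (adjusted p = 0.0107), Ldb1 fell by 0.43 (0.0185), Gata1 fell by 0.42 (0.0495), Klf1 fell by 0.41 (0.0832) and Nfe2 fell by 0.36 (0.0750). Tal1 differed by -0.13 (95% CI -0.50 to 0.24, adjusted p = 0.608), Lmo2 differed by 0.06 (-0.27 to 0.39, adjusted p = 0.804) and Sox6 differed by 0.08 (-0.29 to 0.45, adjusted p = 0.769).

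The genotypes were also compared after flight (FL-KO vs. FL-WT). Of the factors, 8 of 10 passed as lower against 47.2% of all genes and 0 as higher against 1.91%, with Lmo2 and Sox6 outside. In limma with a mean-expression trend 7 passed, since Tal1 did not. Zfpm1, Zbtb7a and Klf1 were DEGs, 3 of 10 against 8.36% of all genes. Zfpm1 fell by 1.75 (SE 0.21, adjusted p = 1.19e-06), to 24.4% of the FL-WT level, and Zbtb7a fell by 1.29 (SE 0.19, adjusted p = 5.78e-06), to 34.4%. Klf1 fell by 1.02 (adjusted p = 8.29e-05), to 46.6%, and was no DEG without FL-WT mouse 6, 7 or 8 or FL-KO mouse 2, 4 or 12. Gfi1b, next in size, was a DEG without FL-WT mouse 3 or 5 or FL-KO mouse 9 or 12. Gfi1b fell by 0.97 (adjusted p = 4.20e-04), Gata1 fell by 0.75 (7.93e-04), Ldb1 fell by 0.67 (3.50e-04), Nfe2 fell by 0.52 (0.00884) and Tal1 fell by 0.37 (0.0945). Lmo2 differed by -0.12 (95% CI -0.45 to 0.21, adjusted p = 0.589). Sox6 differed by 0.29 in the other direction (95% CI -0.08 to 0.66, adjusted p = 0.202), with 124% of the FL-WT mean. The groups did not overlap for Zfpm1, Ldb1 and Zbtb7a, 3 of 10 against 20.6% of all genes. Comparisons that share a group, such as both that use GC-WT mice, are not independent of each other.

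Whether flight acted differently in the genotypes was tested as the interaction in limma. It passed for 0 of 10 factors (adjusted p = 1.0 for each), and 0.0162% of all genes passed with a larger fall in Nrf2-KO mice. At an unadjusted p under 0.05 the interaction was present for Zfpm1 (-0.76, SE 0.30) and Klf1 (-0.61, SE 0.27), 2 of 10 factors, and limma with a trend gave the same count. Over all genes 428, or 3.46%, had an unadjusted p under 0.05. With median-of-ratios scaling Zbtb7a was added (3 of 10, against 10.6% of all genes), and with the GC content and length trend removed the count was 2, Zfpm1 and Zbtb7a, against 9.60%. The larger fall in Nrf2-KO mice did not pass the correction for any factor.

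With flight and Nrf2-KO combined, the level in FL-KO mice can be set beside that in GC-WT mice, as a description with no test of its own. Zfpm1 was 9.60-fold lower, with 10.4% left, followed by Gfi1b (4.80-fold, 20.8%), Zbtb7a (4.25-fold, 23.5%), Klf1 (4.0-fold, 25.0%) and Gata1 (3.35-fold, 29.8%). Tal1 kept 37.6%, Ldb1 43.9%, Nfe2 49.2%, Sox6 51.2% and Lmo2 62.6%. Lmo2 was the only factor whose FL-KO and GC-WT mice overlapped, and for 51.1% of all genes every FL-KO mouse was below every GC-WT mouse.

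The whole table shifted as well, and part of each difference depends on how libraries are scaled. The median log2 fold change of all genes was -0.24, -0.29, -0.22 and -0.25 in the order of comparisons above. With median-of-ratios scaling, which sets a typical gene equal between libraries, it was 0.00, -0.01, 0.03 and 0.04. After flight in WT mice the median of the 10 factors was -0.86 as deposited and -0.52 with median-of-ratios scaling. In Nrf2-KO mice it was -1.09 and -0.72. By genotype it was -0.42 and -0.07 on the ground, and -0.71 and -0.31 after flight. All 10 factors were below the median of all genes in both flight comparisons on either scale, against 7 of 10 on the ground and 8 of 10 after flight for the genotype.

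With median-of-ratios scaling, Gata1, Klf1, Zfpm1, Tal1, Gfi1b and Sox6 passed as lower after flight in WT mice, 6 of 10 where 15.9% of all genes passed as lower and 17.4% as higher. All 10 passed as lower after flight in Nrf2-KO mice, where 21.6% of all genes were lower and 18.1% higher. By genotype on the ground, Zfpm1 (-0.65), Zbtb7a (-0.49) and Gfi1b (-0.36) passed as lower, 3 of 10 against 27.9% of all genes. Lmo2 (0.41) and Sox6 (0.42) then passed as higher, 2 of 10 against 29.8%. By genotype after flight, 6 of 10 passed as lower against 31.2% and again Lmo2 (0.31) and Sox6 (0.71) as higher, against 35.2%. Zfpm1, Zbtb7a and Gfi1b passed as lower in Nrf2-KO mice on both scales. On the ground 3 of 10 was near the share of all genes with median-of-ratios scaling. The direction for Lmo2 after flight and for Tal1 turned with the scaling.

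The share of each factor in the sum of the 10 does not depend on scaling between libraries, apart from rounding. Zfpm1 made up 10.3% ± 1.59 (SD, n = 6) of the sum in WT mice on the ground and 7.28% ± 0.805 after flight, and 6.37% ± 1.11 and 2.79% ± 0.522 in Nrf2-KO mice. Klf1 held 14.5% ± 1.25 in GC-WT mice and 9.29% ± 0.985 in FL-KO mice, below every GC-KO and FL-WT mouse. Lmo2 held 16% ± 2.45 of the sum in GC-WT mice and 25.6% ± 1.48 in FL-KO mice, above every FL-WT and GC-KO mouse. Nfe2 held 23.2% ± 1.75 and 29.0% ± 1.88 in these groups. After flight Sox6 held 4.62% ± 1.08 of the sum in WT and 8.60% ± 0.745 in Nrf2-KO mice, without overlap. The mix of factors was thus not constant between groups, and shares of a sum move against each other by construction.

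**Figure D3:**
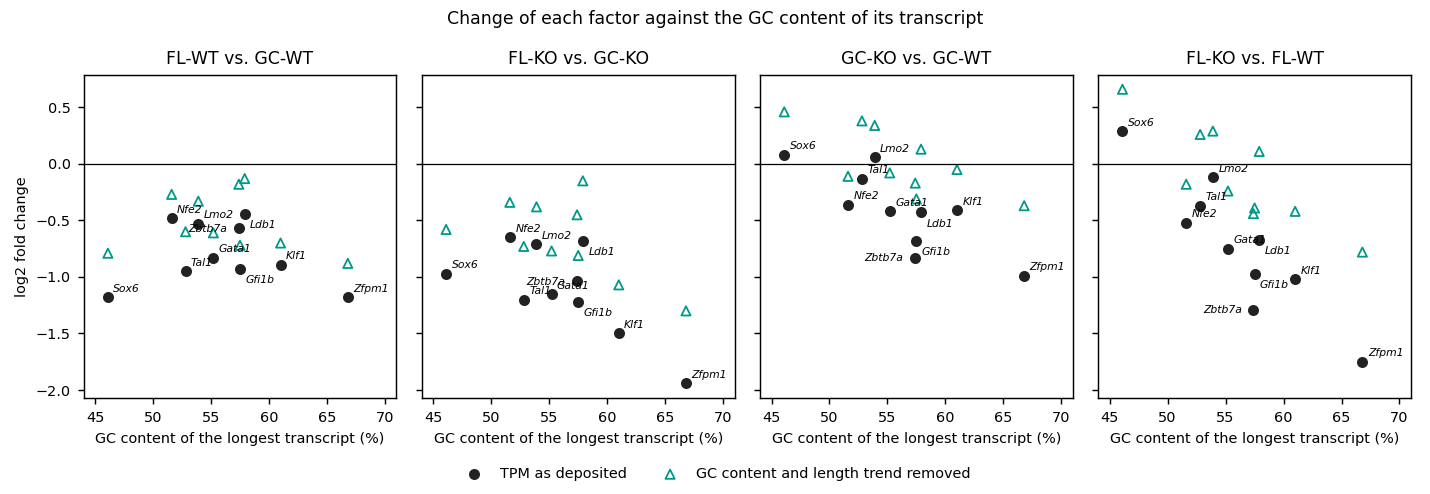
Log2 fold change of each factor against the GC content of its longest transcript (%), in the 4 comparisons. Filled points give TPM as deposited and open triangles the fit with each library's GC and transcript length trend removed. Zfpm1, with a GC content of 66.8%, lies lowest in all 3 comparisons with Nrf2-KO mice on either fit, and Sox6 (46.1%) lies highest in both genotype comparisons.

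By genotype, factors with transcripts of higher GC content had the lower log2 fold changes. Zfpm1 had the highest GC content of its longest transcript (66.8%), then Klf1 (61.0%), and Sox6 the lowest (46.1%), where the median of all tested genes was 49.1%. Over the 10 factors Spearman's rho between GC content and log2 fold change was -0.08 and -0.60 for flight in WT and Nrf2-KO mice, and -0.78 and -0.83 for genotype on the ground and after flight. Over 12370 genes it was -0.03, -0.29, -0.43 and -0.51. These are correlations across genes that share their libraries, and genes are no replicates. With each library's GC and length trend removed, rho over the 10 factors was -0.59 and -0.76 in the genotype comparisons. The part of GC content in these differences was not tested beyond this fit.

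After that trend was removed, 9 of 10 factors in WT mice (all but Ldb1) still passed as lower after flight. Of all genes 15.3% passed as lower and 17.4% as higher there. All 10 passed as lower after flight in Nrf2-KO mice, where 15.6% of all genes were lower and 19.6% higher. Zfpm1 (-1.30, adjusted p = 3.36e-06) and Klf1 (-1.07, adjusted p = 4.03e-05) were still DEGs there. The share of all genes that were DEGs in this fit is not given here. By genotype on the ground, Zfpm1 (-0.37, adjusted p = 0.0350) and Zbtb7a (-0.17, adjusted p = 0.0712) passed as lower, 2 of 10 against 22.6% of all genes. Tal1 (0.38), Lmo2 (0.34) and Sox6 (0.46) then passed as higher, 3 of 10 against 23.9%. After flight, Zfpm1, Klf1, Gfi1b, Nfe2 and Zbtb7a passed as lower, 5 of 10 against 24.2%, and Lmo2 and Sox6 as higher against 30%. In this fit the genotype difference after flight was -0.78 for Zfpm1, against -1.75 as deposited, and -0.44 for Zbtb7a, against -1.29, and neither was a DEG. Zfpm1 and Zbtb7a passed as lower in Nrf2-KO mice in all 3 fits, by less with the trend removed. On the ground 2 of 10 was near the share of all genes in this last fit. Lmo2 and Sox6 passed as lower by genotype in none of the 3.

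Partners and corepressors of the factors came next, as a list of 19 genes known to bind them. After flight in WT mice 14 of 19 passed as lower, after flight in Nrf2-KO mice 17, by genotype on the ground 16 and by genotype after flight 17, and 0 passed as higher in limma. Over all genes 39.0%, 53.1%, 42.9% and 47.2% passed as lower in the same order, and counts of the lists that follow can be read against these shares. Here and in the lists that follow, each count of 0 in the TPM as deposited was also 0 at an unadjusted p under 0.05 and in limma with a trend. Counts of 0 as lower under median-of-ratios scaling or with the GC content and length trend removed were also 0 at that unadjusted p. The median of the partners was -0.51, -0.64, -0.72 and -0.84 in the same order, further from 0 by genotype than by flight, the reverse of the order for the factors. Smarca4, the ATPase BRG1, fell by 1.0 after flight in WT mice (adjusted p = 0.00240) and fell by 1.24 by genotype on the ground (adjusted p = 4.16e-04). Its mean was 20.4 ± 4.42 TPM (SD, n = 6) for GC-WT and 3.42 ± 0.791 TPM for FL-KO mice. Tcf3, an E protein that pairs with TAL1, fell by 1.36 after flight in Nrf2-KO mice (adjusted p = 1.84e-05) and fell by 1.53 by genotype after flight (adjusted p = 9.88e-07), to 4.41 ± 0.857 TPM. By genotype on the ground the corepressor Cbfa2t3 (ETO2) fell by 1.23 and the acetyltransferase Crebbp fell by 1.17, and by genotype after flight Chd4 of the NuRD complex fell by 1.27. With median-of-ratios scaling 6, 11, 13 and 15 of 19 passed as lower and 3, 2, 0 and 1 as higher, where 15.9%, 21.6%, 27.9% and 31.2% of all genes were lower. With the GC content and length trend removed 6, 9, 13 and 14 passed as lower.

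Of 7 partners and relatives of NF-E2, 6 were tested. As lower passed 4 after flight in WT mice and all 6 in the other 3 comparisons. Median-of-ratios scaling gave 2, 4, 5 and 5, and removal of the trend 2, 3, 4 and 4. Bach2, a repressor at the same sites, fell by 1.02 after flight in WT mice (adjusted p = 0.00118) and fell by 1.07 by genotype on the ground (adjusted p = 5.37e-04). The small Maf gene Mafk fell by 0.86 after flight in Nrf2-KO mice (adjusted p = 1.23e-04), and Mafg fell by 1.01 by genotype after flight (adjusted p = 7.63e-06). Nfe2l2 itself is in this list, and it fell by 1.91 on the ground (adjusted p = 2.50e-08) and fell by 2.23 after flight (adjusted p = 1.43e-09) by genotype.

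Among 14 other erythroid regulators, 9, 13, 11 and 12 passed as lower in the 4 comparisons in the same order and 0 as higher, where the shares of all genes were 39.0%, 53.1%, 42.9% and 47.2%. With median-of-ratios scaling 8, 8, 9 and 10 passed as lower, and Nr3c1, the glucocorticoid receptor, passed as higher in all but flight in WT mice. With the trend removed 7, 6, 7 and 10 passed as lower. Epor, the erythropoietin receptor, fell by 1.03 after flight in WT mice (adjusted p = 1.59e-04), from 20.3 ± 4.72 to 9.52 ± 2.55 TPM, and fell by 1.31 after flight in Nrf2-KO mice (adjusted p = 1.45e-05). E2f2, which times the last erythroid divisions, fell by 1.4 and Foxo3 fell by 1.2 after flight in Nrf2-KO mice. Klf13 fell by 1.33 by genotype on the ground (adjusted p = 2.99e-04) and fell by 1.92 by genotype after flight (adjusted p = 6.05e-07). Gata2, the GATA factor of progenitors and mast cells, was at 2.79 ± 1.16 TPM in FL-WT and 0.680 ± 0.200 TPM in FL-KO mice, and E2f2 fell by 1.12 in the same comparison.

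Among 10 transcription factors of other lineages, 2 passed as lower after flight in WT mice, led by the B cell factor Ebf1 (-0.84, adjusted p = 0.00103), and 5 in Nrf2-KO mice, led by Cebpa (-0.59, adjusted p = 0.00276). By genotype 9 of 10 were lower on the ground, led by Cebpa (-0.67, adjusted p = 9.15e-04), and 10 of 10 after flight. The myeloid factors Spi1 (-1.30), Cebpb (-1.25) and Cebpa (-1.2) fell most by genotype after flight. With median-of-ratios scaling Fli1, Cebpa, Spi1 and Cebpe passed as higher after flight in WT mice. After flight in Nrf2-KO mice 1 then passed as lower and 2 as higher (Cebpe and Fli1), and with the trend removed 0 as lower and 1 as higher (Gfi1). By genotype 8 and 7 of 10 were lower with median-of-ratios scaling, and 7 in each condition with the trend removed.

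Target genes were those known to be activated by GATA1, KLF1 or both. Of 31 target genes in the table, 26 passed as lower after flight in WT mice and 27 after flight in Nrf2-KO mice, with a median of -1.02 and -1.13, against 39.0% and 53.1% of all genes. With median-of-ratios scaling and with the trend removed 26 passed as lower in each flight comparison. As DEGs counted 16 and 18, against 0.938% and 2.13% of all genes. After flight in WT mice the spectrin gene Sptb fell by 1.45, the ankyrin gene Ank1 fell by 1.39 and the nuclear protein gene Hemgn fell by 1.34 (adjusted p between 5.98e-05 and 6.43e-05). After flight in Nrf2-KO mice Slc4a1 (band 3) fell by 1.78, Sptb fell by 1.56 and Cpox, an enzyme gene of haem synthesis, fell by 1.45. The globin genes did not pass. Hba-a1, Hba-a2, Hbb-bs and Hbb-bt differed by -0.15 to 0.23 between flight and ground (adjusted p at or above 0.308), and copies of a globin gene share sequence, so that TPM may be split between them with error. With median-of-ratios scaling these 4 passed as higher after flight in WT mice. Alas2, an enzyme gene of haem synthesis, did not pass after flight in WT mice either (-0.18, adjusted p = 0.450). In Nrf2-KO mice Alas2 passed as lower (-0.47, adjusted p = 0.0428). With median-of-ratios scaling Alas2 passed in neither (0.17, adjusted p = 0.490, in WT and -0.03, adjusted p = 0.914, in Nrf2-KO mice).

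By genotype fewer target genes passed as lower. On the ground 5 of 31 passed as lower, against 42.9% of all genes, and 5 as higher, against 3.13%, among them Tspo2, Trim10, Hbb-bs and Hbb-bt, with a median of -0.07. Hbb-bt had the smallest adjusted p (0.62, SE 0.17, adjusted p = 0.00664), at 16837 ± 3251 TPM in GC-KO and 11263 ± 3444 TPM in GC-WT mice. After flight 10 passed as lower, of which Slc4a1 (-1.06, adjusted p = 1.06e-04) was the DEG, and 3 as higher, with a median of -0.11. With median-of-ratios scaling 0 of 31 passed as lower and 16 as higher on the ground, and 2 as lower and 19 as higher after flight. Of all genes 27.9% passed as lower and 29.8% as higher on the ground, and 31.2% and 35.2% after flight. Within each mouse, the median log2(TPM + 1) of the factors minus that of the targets was -1.22 in GC-WT (-1.5 to -0.95) and -1.48 in GC-KO mice (-1.61 to -1.30), as medians and ranges over 6 mice. It was -1.10 in FL-WT (-1.2 to -0.84) and -1.31 in FL-KO mice (-1.69 to -1.12), so the groups overlapped in each condition.

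**Figure D4:**
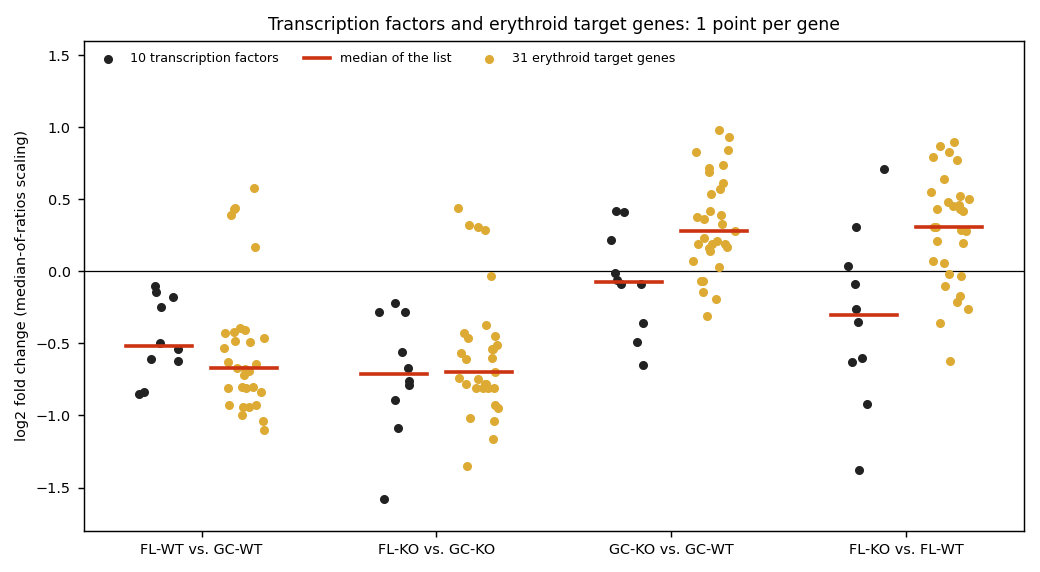
Log2 fold changes with median-of-ratios scaling, 1 point per gene, for the 10 factors and 31 erythroid target genes in the 4 comparisons, with a bar at the median of each list. The medians of both lists are below 0 in the flight comparisons (-0.52 and -0.67 in WT mice), and by genotype on the ground they are -0.07 for the factors and 0.28 for the targets.

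Markers of other cells that use these factors were counted in the same way, against 39.0% and 53.1% of all genes lower after flight in WT and Nrf2-KO mice, and 42.9% and 47.2% by genotype on the ground and after flight. Of 11 megakaryocyte markers, 9 passed as lower after flight in WT mice, and all 11 after flight in Nrf2-KO mice, with Gp1bb (-1.05) and Ppbp (-1.03) as DEGs. With median-of-ratios scaling these counts were 4 and 7 of 11, and with the GC content and length trend removed 5 and 3, with medians below 0 throughout. Their summed level in WT mice had a median of 207 TPM on the ground (102 to 339) and 131 TPM after flight (53.4 to 177), and in Nrf2-KO mice of 176 TPM (113 to 206) and 83.8 TPM (35.4 to 156). By genotype 4 and 6 of 11 passed as lower, near the shares of all genes, led after flight by Gp1bb (adjusted p = 0.0201), and with median-of-ratios scaling 1 and 2 did.

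Of 7 tested mast cell and basophil markers, 0 and 1 passed as lower in the flight comparisons, and their summed level ran from 126 to 226 TPM in FL-WT and from 140 to 186 TPM in GC-WT mice. With median-of-ratios scaling 4 passed as higher in each. By genotype 4 of 7 were lower in each condition, near the shares of all genes, led by Hdc (-1.17 on the ground and -1.59 after flight) and Prss34 (-1.07 and -1.41). With median-of-ratios scaling 3 were lower in each condition, while Ms4a2 and Fcer1a passed as higher on the ground and these with Mcpt8 after flight. Gata2, also in this list, had the smallest adjusted p of it in both flight comparisons (0.226 and 0.0298).

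Of 7 eosinophil markers, 3 passed as higher after flight in WT mice, where the summed level was 662 to 1040 TPM on the ground and 1100 to 1393 TPM after flight, and all 7 did with median-of-ratios scaling or the trend removed. After flight in Nrf2-KO mice 4 passed as lower as deposited, but 0 with median-of-ratios scaling (median 0.03) and 0 with the trend removed, where 1 was higher. Ear6 led in both (0.87 and -0.51), and Ear6 and Epx were DEGs by genotype after flight (-1.25 and -1.22), while by genotype on the ground 0 of 7 passed, with Ccr3 nearest (0.37, adjusted p = 0.114). Of 5 tested stem and progenitor markers, 1 passed as lower in each flight comparison, Kit (-0.44 and -0.40), and 3 by genotype in each condition, led by Kit on the ground (-0.77) and Flt3 after flight (-0.67), and sums lay between 6.28 and 18.7 TPM in all mice. With median-of-ratios scaling 0 of these 5 passed as lower by flight and 2 by genotype. No marker in these 4 lists was at 0 in all libraries. The part of these cells in the results was not tested.

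Of the other lineages, 5 of 11 neutrophil markers passed as higher after flight in WT mice, led by Retnlg (0.60). After flight in Nrf2-KO mice 3 passed as lower, with Mmp9 (-1.17) and Mpo (-1.06) as DEGs, and Retnlg (0.53) as higher. With median-of-ratios scaling 2 were lower and 7 higher there, and with the trend removed 3 and 6. By genotype Mmp9 (-1.92 and -2.85), Mpo (-1.72 and -2.39) and Ltf (-1.62 and -2.33) led the 6 and 7 markers that passed as lower, while S100a8 (0.48) and S100a9 (0.45) passed as higher on the ground. With median-of-ratios scaling 6 were lower and Camp, S100a8 and S100a9 higher in each condition.

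All 10 B lineage markers passed as lower after flight in both genotypes, with summed medians of 272 TPM on the ground and 144 TPM after flight in WT mice. With median-of-ratios scaling 8 passed as lower in WT and 9 in Nrf2-KO mice, and with the trend removed 10 and 7. Vpreb3 (-1.28 in WT and -1.33 in Nrf2-KO mice) and Rag1 (-1.16 in WT mice) were DEGs of flight, and Rag1 (-1.05 on the ground) and Cd79a (-1.12 after flight) of genotype. The monocyte and macrophage list had 0 of 10 lower after flight in WT mice and 8 of 10 by genotype after flight, where Csf1r (-1.74), Cd5l (-1.13) and Cd68 (-1.01) were DEGs, as Csf1r was on the ground (-1.24). With median-of-ratios scaling 4 of these 10 passed as higher after flight in WT mice, and 5 as lower by genotype after flight. Vcam1 (-0.30, adjusted p = 0.166) and C1qb (-0.57) came first by flight. The T and NK list had 1 of 9 lower after flight in WT mice (Cd4, -0.29) and 5 of 9 by genotype after flight, led by Cd3e there (-1.05), on the ground (-0.71) and after flight in Nrf2-KO mice (-0.44). With median-of-ratios scaling 4 of the 9 passed as higher in each flight comparison, and by genotype after flight 1 was lower and 2 were higher. After flight in WT mice most markers of the B lineage list passed as lower with the erythroid factors in all 3 fits, and most of the megakaryocyte list did in the TPM as deposited alone. In these fits 0 markers of the neutrophil, eosinophil, monocyte and mast cell lists passed as lower there.

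**Figure D5:**
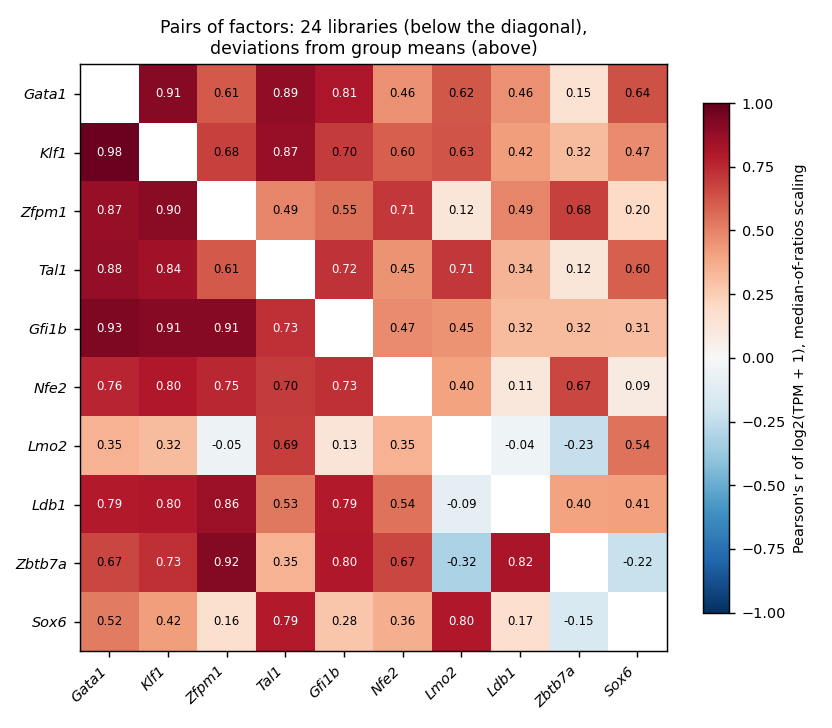
Pearson's r of log2(TPM + 1) with median-of-ratios scaling for the 45 pairs of factors, over 24 libraries below the diagonal and over deviations from the group means above it. Gata1 and Klf1 form the closest pair (0.98 and 0.91), and Lmo2 with Zbtb7a the least alike (-0.32 and -0.23).

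Across the 24 libraries the factors did not vary as a single block. Over 45 pairs, Pearson's r of log2(TPM + 1) with median-of-ratios scaling had a median of 0.73 and ran from -0.32 (Lmo2 with Zbtb7a) to 0.98 (Gata1 with Klf1). Within groups, as deviations from the group means, the median was 0.47, with the same extremes at -0.23 and 0.91. Zfpm1 had the highest median r with the other factors over 24 libraries (0.86), and Lmo2 (0.32) and Sox6 (0.36) had the lowest. Within groups the order differed. Klf1 (0.63) and Gata1 (0.62) were highest, Zfpm1 was at 0.55, and Zbtb7a (0.32) and Ldb1 (0.40) were lowest. Over 24 libraries Lmo2 and Sox6 were close to each other (0.80), as were Zfpm1 and Zbtb7a (0.92). Within groups these pairs were at 0.54 and 0.68. These correlations describe libraries that share a scaling and 4 group means, and no p is given.

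The genes most like the factors were found among 5015 genes whose mean reached 5 TPM, by Pearson's r with the mean standardized level of the 10 factors over 24 libraries. They were Add2, the membrane skeleton protein beta-adducin (0.98), Slc4a1 (0.97), the phosphatase subunit gene Ppp2r5b (0.97), and the cell cycle regulators Mybl2 (0.96) and E2f4 (0.96). For deviations from the group means they were Add2 (0.95), Rab3il1 (0.92), E2f4 (0.91), the amino acid transporter gene Slc43a1 (0.90) and the membrane skeleton gene Dmtn (0.89). Add2 and E2f4 appeared by both measures.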

How the data were processed

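RNA-seq of cryopreserved bone marrow cells was analysed in 24 mice, 6 in each of the 4 groups given by the sample labels. The authors isolated RNA with ISOGEN-LS, prepared strand-keeping libraries for the DNBSEQ-G400, aligned the reads (STAR 2.6.1, mm10) and estimated TPM (RSEM 1.3.1). The deposited table holds TPM, and its columns sum to between 999999.5 and 1000001.1. It holds no read counts, so the depth of the libraries is unknown and no counting error can be given. The methods give iDEP.95 for normalisation and DEG analysis, and these steps were replaced here.

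Genes were matched to GENCODE M21 on GRCm38 by Ensembl ID without version (54723 of 54752). The model (limma 3.58.1, R 4.3.3) took log2(TPM + 1) of all 24 libraries and gave each group its own mean, for the 12373 genes that exceeded 1 TPM in any library. P-values were adjusted over all of these. A gene was a DEG when its adjusted p was under 0.1 and it changed 2-fold or more. P-values set each difference between groups against the spread between mice within groups. The fit was tested on simulated data. Tables and plots were made in Python 3.11.15 (pandas 2.3.3 and numpy 2.4.6 for tables, scipy 1.17.1 for rank correlations, matplotlib 3.10.9 for plots). The 10 factors and all gene lists were chosen with earlier results of these data known. Lists were described by counts and medians. From each list, the text names up to 3 DEGs of largest change per comparison, or the gene of smallest adjusted p where there was none. The globin genes, Alas2 and the names given beside short counts were added after their values were seen. The lists were partners and corepressors, NF-E2 relatives, other erythroid regulators, factors of other lineages, target genes and markers of 8 cell types. One target gene, Ahsp, was not used here. Values of 2 genes of these lists are not reported here. The length and GC content of the longest transcript were used, and a trend of each library with both was removed with natural splines with 4 degrees of freedom. Promoters were RefSeq sequences on GRCm38.p6, and motifs were matched exactly.

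Alternatives concerned the scale (a pseudocount of 0.1, quantile normalization, median-of-ratios scaling, leaving 5 small RNAs out of the TPM sum, removing the trend with GC content and length), the genes tested (all genes above 0, or those exceeding 1 TPM in 6 or more libraries), the model (a trend of the variance with expression, only the groups being compared, a block for the mouse number), the threshold (0.05, or no fold change required) and the libraries, by omitting them one after another.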

Additional observations from a re-analysis of the deposited data

Results flagged for a closer look

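Zfpm1 in FL-KO mouse 11 was at 5.88 TPM, far above the next of its group (3.75 TPM), with a gap of 0.78 of the group's range, above Dixon's 95% critical value for 6 values. It was 1 of 40 groups of 6 values tested (10 genes in 4 groups), and chance marks about 1 in 20. Zfpm1 in this mouse was still below every mouse of the other 3 groups.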

How the results depend on the processing

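The mouse numbers are shared by ground and flight mice of a genotype, but the labels do not say that a number marks a shared litter, batch or day. Over 12 pairs the correlation of deviations ran from -0.03 to 0.27, 6 pairs were above 0.1, and 5 of 12 flight mice were closest to their own number, so the numbers were not treated as pairing the mice. With the number as a replicate block, the counts of factors called lower stayed at 2 after flight in WT mice and 6 after flight in Nrf2-KO mice, target genes at 16 and 18, the medians relative to all genes at -0.62 and -0.81, and the interaction at 0.

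Counts of DEGs among the factors changed with the scaling. For flight in WT mice, flight in Nrf2-KO mice and genotype after flight they were 2, 6 and 3 as deposited. Median-of-ratios scaling gave 0, 2 and 1, quantile normalization 0, 2 and 1, and removal of the trend with GC content and length 0, 2 and 0. Target genes called were 2, 4 and 0, then 10, 5 and 0, then 2, 3 and 0 in these fits, against 16, 18 and 1. The shares of all genes that were DEGs in the rescaled fits are not given here, so these counts cannot be set against them. By genotype on the ground 1 factor was called, Zfpm1, with a pseudocount of 0.1 or without the 5 small RNAs, and the latter left 0 target genes by genotype after flight. With no minimum fold change 10, 10, 7 and 8 factors were called, and 26, 27, 5 and 10 target genes. With no filter the medians relative to all genes were -1.04, -0.40 and -0.70 in the comparisons other than flight in WT mice, since many genes near 0 entered. With the trend removed the last was -0.25.

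Some directions turned. Tal1 was at 0.22, 0.16 and 0.38 by genotype on the ground and at 0.04, 0.07 and 0.26 by genotype after flight with median-of-ratios scaling, quantile normalization and the trend removed, in this order, and Lmo2 at 0.31, 0.23 and 0.29 by genotype after flight. With the trend removed Ldb1 was at 0.13 and 0.11 in the genotype comparisons. Without the 5 small RNAs Lmo2 was at -0.06 and Sox6 at -0.04 by genotype on the ground. The interaction of Nfe2 was at 0.03 with quantile normalization and at 0.04 without the small RNAs, and that of Lmo2 at 0.02 without them. The cause of these turns was not tested.

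Leaving out 1 library at a time gave 2 to 4 factors after flight in WT mice (4 without GC-WT mouse 5 or FL-WT mouse 7), 5 to 7 after flight in Nrf2-KO mice, 0 to 1 by genotype on the ground and 2 to 4 by genotype after flight, and 12 to 18, 16 to 21, 0 and 0 to 1 target genes. The target gene by genotype after flight, Slc4a1, was lost without FL-WT mouse 7, FL-KO mouse 2 or FL-KO mouse 4. Lmo2 by genotype on the ground ran from -0.04 to 0.12 (below 0 without GC-WT mouse 5 or GC-KO mouse 11, -0.03), and Sox6 from -0.02 to 0.19 (below 0 without GC-WT mouse 5, GC-KO mouse 9, at -0.01, or GC-KO mouse 11). Over the factors and settings other than left-out libraries, 487 of 560 values kept direction and side of the threshold. What depth limits cannot be said, since TPM holds no counts.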
